A study of Mus musculus with 28 samples.

Results

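Sox proteins are transcription factors that bind and bend DNA through an HMG box, and related members form subgroups named by letters. In skin, Sox9 is known for specifying the outer root sheath and the stem cells of the hair follicle, Sox2 for marking the dermal papillae of some follicle types and Merkel cells, and Sox18 for blood vessel, lymphatic and hair defects when it is mutated in mice. Subgroup members often share partners and targets, so the genes are described together by subgroup. The 10 genes were Sox2 (SoxB1), Sox21 (SoxB2), Sox4 and Sox11 (SoxC), Sox5, Sox6 and Sox13 (SoxD), Sox9 (SoxE), and Sox7 and Sox18 (SoxF). They were chosen by symbol, and each had 1 row among the 23015 rows kept of the deposited expression table, which held 10 other Sox genes. All 10 passed the filter for testing, at least 1 FPKM in at least 2 of 28 libraries, as did 15052 genes in all. FPKM, a count of sequenced fragments scaled by transcript length and library, is a level per length, so levels of different genes can be set side by side.

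Mouse back skin at postnatal day 5, a stage of hair follicle growth, was sorted into 14 populations with 2 libraries each. All mice had a mixed strain background, from FVB/N, C57BI/6J and CD1. Every population except HF-SC and HF-ORS also carried Lef1-RFP, a red reporter of Lef1. HF-SC, bulge stem cell precursors, were bright for K14-RFP and ITGA6 and positive for Sox9-GFP, whereas HF-ORS, the remaining sheath, had the same K14-RFP and ITGA6 gate but lacked Sox9-GFP. G/AA-DP, papilla cells of guard and awl/auchene follicles, were Sox2-GFP-positive, Lef1-RFP-positive and high in ITGA9, and ZZ-DP, zigzag papilla cells of the same Sox2-GFP line, were Sox2-GFP-negative. In the Crabp1-GFP line, guard papilla cells (G-DP) were Crabp1-GFP-negative and awl/auchene and zigzag papilla cells (AA/ZZ-DP) were Crabp1-GFP-positive, again among Lef1-RFP-positive cells with high ITGA9. The other 8 populations came from the K14-H2BGFP line, in which the keratin 14 promoter drives a nuclear GFP. TAC, labelled as matrix progenitors that express Shh, were dim for GFP and positive for Lef1-RFP, inside the gate of Mx, matrix cells that were dim for GFP. ORS, outer root sheath, was bright for GFP in the dermal preparation, and Epi was GFP-positive in the epidermal preparation. DP, unfractionated dermal papilla, was positive for Lef1-RFP and high in ITGA9. Mc, melanocytes, were positive for Lef1-RFP and CD117 (the Kit receptor), and DF, dermal fibroblasts, were Lef1-RFP-positive cells without CD117 or ITGA9. Neg was a mixture of dermal cells negative for the markers. The labels do not say whether a GFP reporter replaces an allele of its gene, nor whether the 2 libraries of a population came from separate animals, so p-values measure only the spread between these libraries.

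Libraries held 10951 to 12497 genes at 1 FPKM or more, and their depth is unknown. Both libraries of a population correlated at 0.8835 to 0.9655 across genes. Malat1, an abundant nuclear RNA, was listed at 0 in all 10 papilla libraries and lay between 1734 and 9696 FPKM in the other 18, so a value of 0 is read here only as listed at 0. Each GFP reporter gate was checked against its own gene. Sox9 followed the Sox9-GFP gate and Crabp1 the Crabp1-GFP gate in both replicates, but in replicate 1 Sox2 was listed at 0 in the library labelled Sox2-GFP-positive and not in its negative partner. The 4 libraries of that line are therefore called by their labels, and their comparison is given with and without replicate 1. DF held markers of other cells, with summed FPKM of 10 melanocyte markers of 1429 and 1441, against 26.1 and 32.1 in DP. In these bulk samples, fewer cells of a type and less RNA per cell cannot be told apart.

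The HMG box is the DNA-binding stretch that defines the family, and its coding sequence shows how alike the members are there. The 60 bases below begin the box's conserved core in each gene, taken from the GENCODE M21 transcripts of GRCm38 on the coding strand, 5′ to 3′. Capitals mark bases unlike those of Sox2 at the same position.
Sox2: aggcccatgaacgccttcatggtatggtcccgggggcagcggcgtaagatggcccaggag
Sox21: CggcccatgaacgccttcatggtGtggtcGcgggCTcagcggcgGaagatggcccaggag
Sox4: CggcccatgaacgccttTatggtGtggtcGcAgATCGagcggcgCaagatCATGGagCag
Sox11: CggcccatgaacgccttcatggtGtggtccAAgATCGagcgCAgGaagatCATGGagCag
Sox5: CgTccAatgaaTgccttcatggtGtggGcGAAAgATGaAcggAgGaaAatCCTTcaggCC
Sox6: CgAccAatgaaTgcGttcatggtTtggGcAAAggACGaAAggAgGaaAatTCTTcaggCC
Sox13: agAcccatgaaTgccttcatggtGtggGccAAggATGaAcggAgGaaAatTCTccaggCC
Sox9: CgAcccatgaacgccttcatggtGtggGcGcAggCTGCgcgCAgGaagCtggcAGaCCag
Sox7: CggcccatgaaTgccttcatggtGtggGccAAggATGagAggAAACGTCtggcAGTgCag
Sox18: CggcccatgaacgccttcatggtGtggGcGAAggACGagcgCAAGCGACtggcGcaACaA

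All stretches lie within 1 coding exon. On the plus strand they are at chr3:34650548-34650607 (Sox2, exon 1), chr11:112782903-112782962 (Sox9, exon 1) and chr14:63943894-63943953 (Sox7, exon 1). On the minus strand the stretches of exon 1 are at chr14:118235549-118235608 (Sox21), chr13:28952782-28952841 (Sox4), chr12:27342199-27342258 (Sox11) and chr2:181671222-181671281 (Sox18). The SoxD stretches, also on the minus strand, are at chr6:143841214-143841273 (Sox5, exon 13), chr7:115489703-115489762 (Sox6, exon 14) and chr1:133385506-133385565 (Sox13, exon 12). Sox21 differed from Sox2 at 6 of these 60 bases and Sox6 at 24, the fewest and the most among the 9 other members. Over 237 bases of the box, members of 1 subgroup had 76.8% to 89.5% identical bases in 5 pairs, and members of different subgroups 53.6% to 87.8% in 40 pairs. Sox4 and Sox11 had 89.5%, Sox5 and Sox13 84.8%, Sox5 and Sox6 82.7%, Sox6 and Sox13 81.4%, and Sox7 and Sox18 76.8%. Sox2 and Sox21, in the related SoxB1 and SoxB2 subgroups, had 87.8%. The longest identical run in the transcripts of a subgroup pair was 16 to 48 bases, the longest between Sox4 and Sox11. In pairs of different subgroups it was 10 to 38 bases, with 38 between Sox2 and Sox21. How reads from such runs were shared between the genes is not given in the sources used here.

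The genes differed in where they were highest, also within a subgroup. Sox9, Sox21 and Sox7 were highest in keratinocyte populations, Sox6 was high in Epi, HF-ORS and melanocytes, and Sox18 was high in papilla and DF. Sox2 was highest in DP, and Sox11, at 9.23 FPKM or less, was highest in melanocytes, papilla and DF. Sox4 was present everywhere, Sox13 was highest in ORS and papilla, and Sox5 was highest in melanocytes and matrix. Changes below are differences of log2(FPKM + 1) with their standard errors, fitted with limma on all 28 libraries and adjusted by the Benjamini-Hochberg method over 15052 genes, and calls needed an adjusted p below 0.05 with a change of 1 or more in either direction. In low genes this scale understates the change.

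**Figure D1:**
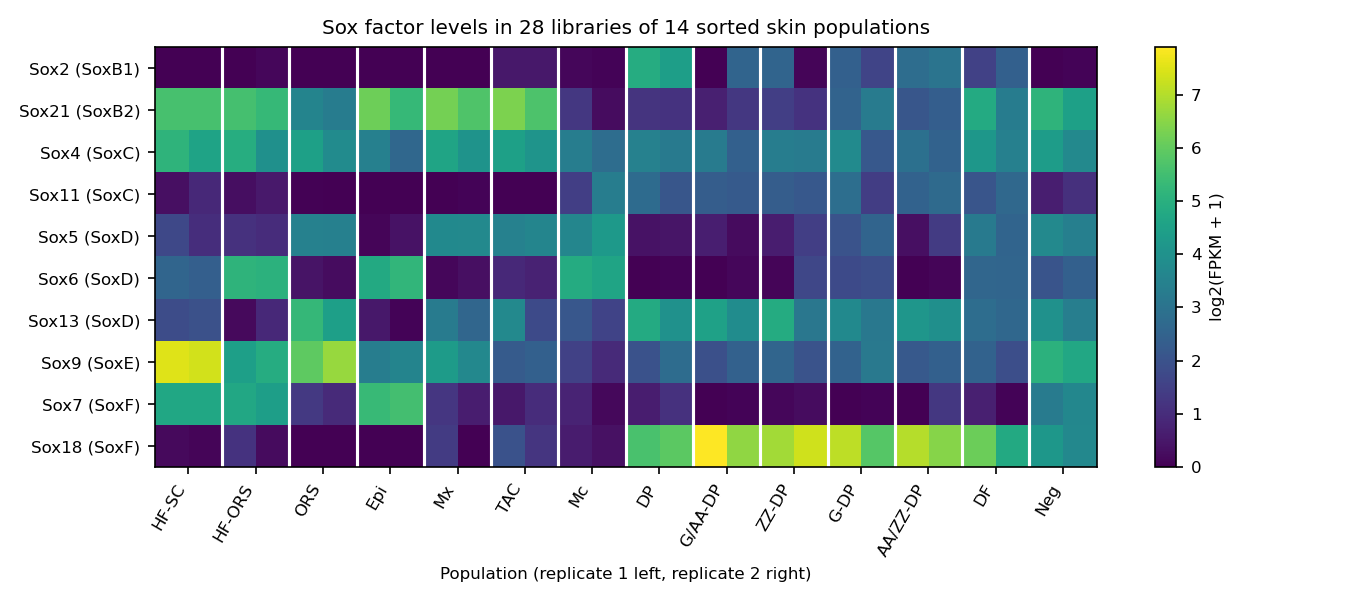
Level of each of the 10 Sox factors (rows, with subgroup) in 28 libraries of 14 populations (columns, replicate 1 left and replicate 2 right), as log2(FPKM + 1) by colour. Sox9 is brightest in HF-SC, Sox18 in the papilla populations, Sox6 in HF-ORS and Epi, and Sox7 in Epi, HF-SC and HF-ORS.

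Sox9 (chr11:112782210-112787757, RefSeq gene on GRCm38.p6) had the highest level of the 10 genes in HF-SC and ORS. In HF-ORS, Epi, Mx and TAC, the other keratinocyte populations, Sox21 was higher. The Sox9 level was 182 and 162 FPKM in HF-SC, against 20.9 and 28.8 FPKM in HF-ORS. The Sox9-GFP-positive libraries did not overlap the negative ones, and the change was 2.76 ± 0.38 (limma, adjusted p = 0.000126). Because Sox9-GFP set the gate, this is a check of the sort. Sox9 was still present in the GFP-negative libraries, and whether in few cells or in many cannot be told from bulk samples. The HF-ORS level lay above 19.1 and 11.8 FPKM in Mx and above 9.06 and 10.8 FPKM in Epi, populations of another mouse line. These differences were not tested. Of the 10 genes, 2 were called between HF-SC and HF-ORS, where 4.40% of all tested genes were, the other being Sox6, which was lower.

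In the K14-H2BGFP line, whose gates name no Sox9 reporter, Sox9 stood at 60.4 and 101 FPKM in ORS, against 9.06 and 10.8 FPKM in Epi. ORS exceeded Epi in both libraries, by 2.86 ± 0.38 (adjusted p = 1.82e-05). Matrix cells were lower again, since Mx, at 19.1 and 11.8 FPKM, fell by 2.30 on the log2 scale relative to ORS (SE 0.38, adjusted p = 0.000819). TAC, the Lef1-RFP-positive cells inside the matrix gate, had 3.86 and 4.41 FPKM and fell by 1.64 relative to Mx (SE 0.38, adjusted p = 0.0315). That last call rests on all 4 libraries, as leaving out any of them gave changes of -1.32 to -1.97 with adjusted p from 0.0789 to 0.376. It was the only 1 of the 10 genes called there, where 1.27% of all genes were. Markers of other cells moved beside it: 8 of 18 papilla genes and 6 of 12 fibroblast markers were higher in TAC than in Mx and none lower. None of 10 melanocyte markers was called, but their median change was 2.24, against 0.00 over all genes. The summed melanocyte markers were 293 and 204 FPKM in TAC, against 40.9 and 52.2 FPKM in Mx, and the papilla genes 513 and 494 FPKM in TAC, against 232 and 198 FPKM in Mx. The papilla genes include Lef1, whose reporter set the TAC gate, at a mean of 245 FPKM in TAC and 110 FPKM in Mx. The summed fibroblast markers were 558 and 480 FPKM in TAC, against 516 and 437 FPKM in Mx. The part of these markers in the TAC levels was not tested. Sox9 thus had an order of ORS, Mx, Epi and TAC in this line, with no overlap between neighbours.

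Sox9 outside the keratinocytes was low but present. It ranged from 2.69 to 8.05 FPKM in papilla and fibroblast libraries, which overlapped widely, and was lowest in Mc at 1.89 and 0.936 FPKM. In the Neg mixture it reached 32.4 and 25.7 FPKM, and the change over the mean of the other 7 populations of that line was 1.77 ± 0.28 (adjusted p = 0.000357). Keratinocyte markers were present in Neg beside it, with a summed FPKM of 12 markers of 3261 and 2346, against 3565 and 3478 in Mx, and their part in the Sox9 level was not tested.

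**Figure D2:**
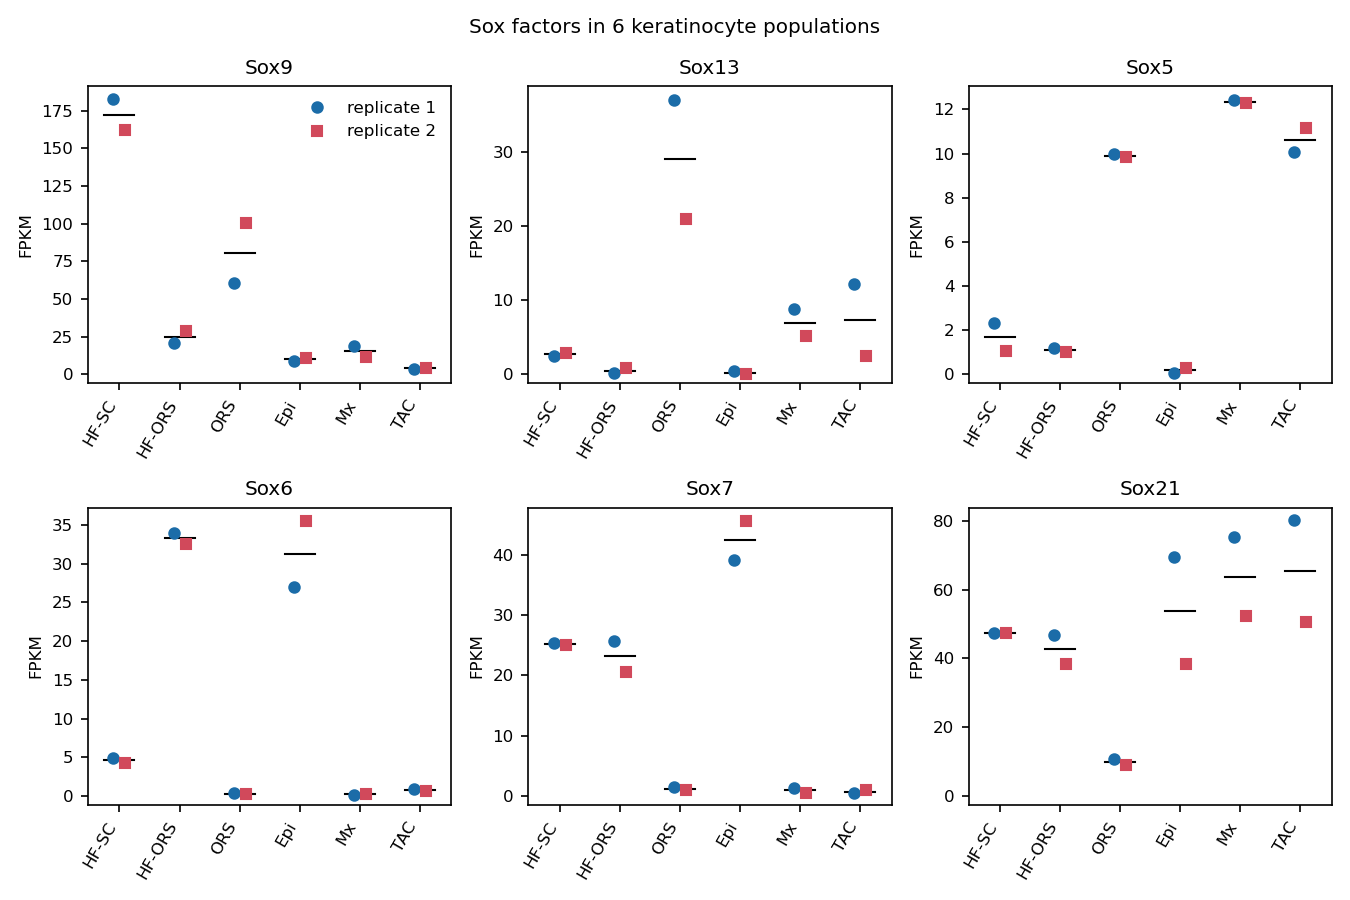
FPKM of 6 Sox factors in the 6 keratinocyte populations (circles replicate 1, squares replicate 2, bars the mean of both). Sox9 is highest in HF-SC and ORS, Sox13 in ORS, Sox6 in HF-ORS and Epi, and Sox7 in Epi, HF-SC and HF-ORS, while Sox5 is low in HF-SC, HF-ORS and Epi.

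Other regulators of follicle stem cells were set beside Sox9. Of 10 such genes, 4 were higher in HF-SC than in HF-ORS and none lower, with a median change of 1.74 against 0.00 over all genes. They were Foxc1 (2.86 ± 0.42), a quiescence factor of bulge stem cells, Lgr5 (2.72 ± 0.52), a receptor for R-spondins, Nfatc1 (2.21 ± 0.42), a factor of quiescent bulge cells, and Runx1 (1.89 ± 0.29), which acts in stem cell activation. Lhx2, a stem cell factor of the bulge, averaged 50.1 FPKM in HF-SC and 10.5 FPKM in HF-ORS but did not pass (adjusted p = 0.0895). In ORS over Epi, 7 of the 10 were higher, with a median of 1.92 against 0.01 over all genes, among them Lgr5 (5.61 ± 0.52) and Lhx2 (4.51 ± 0.69). In Mx over ORS, 4 were lower. Cartilage genes that Sox9 activates with Sox5 and Sox6 were mostly low: 5 of 10 passed the filter, and 1 was higher in HF-SC than in HF-ORS, Col27a1, a fibrillar collagen, at a mean of 8.29 FPKM in HF-SC and 0.927 FPKM in HF-ORS.

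Sox2 (chr3:34649995-34652461) was highest in the unfractionated papilla. Its level was 28.9 and 20.3 FPKM in DP, against 1.89 and 4.37 FPKM in DF. Both DP libraries were above both DF libraries, by 2.68 ± 0.64 (limma, adjusted p = 0.0125). The call was lost without DF replicate 1 (adjusted p = 0.164), without DP replicate 1 (0.112) and with a pseudocount of 0.1 (0.242), with changes of 2.23, 2.43 and 3.03. Of the 10 genes, 4 were called between DP and DF, where 6.69% of all genes were: Sox2 was higher, and Sox21, Sox5 and Sox6 were lower. The long RNA Sox2ot, within which Sox2 lies, shared this pattern, at 31.3 and 22.1 FPKM in DP and 4.20 and 3.48 FPKM in DF (change 2.50 ± 0.65, adjusted p = 0.0201). The deposited position of the Sox2 row is that of Sox2ot, and strand was not stated, so reads of both genes cannot be told apart.

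Outside the papilla and fibroblasts Sox2 was listed at or below 0.418 FPKM in every library. It was listed at 0 in all libraries of HF-SC, ORS, Epi and Mx, and the other HF-ORS, Mc and Neg libraries stayed at or below 0.108 FPKM. TAC had 0.414 and 0.418 FPKM. Merkel cells of the epidermis are known to express Sox2, but of 10 Merkel cell markers only 3 passed the filter. Of these, Krt8 and Krt18 were called higher in ORS than in Epi, at means of 4.13 and 1.66 FPKM against 0, and Piezo2 was not called. Atoh1, the factor that specifies these cells, was listed at 0 in both Epi libraries. Mc was called lower than DF for Sox2 (change -1.87 ± 0.64, adjusted p = 0.0455), a call that ended when any 1 of the 4 libraries was left out, with adjusted p of 0.0533 to 0.280.

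The Sox2-GFP gate asks whether sorted papilla cells differ in Sox2 as labelled, and over both replicates they did not differ detectably. Sox2 was 0 and 4.81 FPKM in the libraries labelled G/AA-DP, and 4.87 and 0.0891 FPKM in those labelled ZZ-DP. In replicate 2 the library labelled Sox2-GFP-positive was the higher of its pair, whereas in replicate 1 it was listed at 0, as was Sox2ot there, and such a value may be a failed estimate. The change was -0.07 ± 0.64 (limma, adjusted p = 1). Within replicate 2 the difference was 2.42, and within replicate 1 it was -2.55, which rests on the value listed at 0. Without both replicate 1 libraries the change was 2.42 (adjusted p = 0.0718), with the lone libraries assumed to vary like the other populations. None of the 10 genes was called by limma, and 1 of 15052 genes was (0.00664%), while 1 of the 10 and 211 of all genes had an unadjusted p under 0.05.

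Other genes turned with Sox2 between the replicates. Sox2ot was listed at 0 and had 9.42 FPKM in the libraries labelled G/AA-DP, against 4.41 and 1.01 FPKM in those labelled ZZ-DP. Its reads cannot be told apart from those of Sox2, so it is no separate evidence of the turn. Crabp1, a retinoic acid binding protein that served as reporter gene in another line, had 655 and 1227 FPKM in the libraries labelled G/AA-DP, against 1426 and 545 FPKM in those labelled ZZ-DP. Sox18 ran the opposite way, at 237 and 94.7 FPKM in the libraries labelled G/AA-DP and 111 and 161 FPKM in those labelled ZZ-DP. Across 9232 genes averaging 5 FPKM or more, the difference in replicate 1 correlated with that in replicate 2 at -0.0873, where the other 7 comparisons of 2 populations gave 0.269 to 0.791. This is a correlation across genes, which are not independent replicates. Xist, transcribed from the inactive X chromosome, was 268 and 262 FPKM in the replicate 1 libraries of this line and 0.365 and 0.448 FPKM in replicate 2. The part of this difference between the replicates in the Sox2 values was not tested, nor was the identity of any library.

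**Figure D3:**
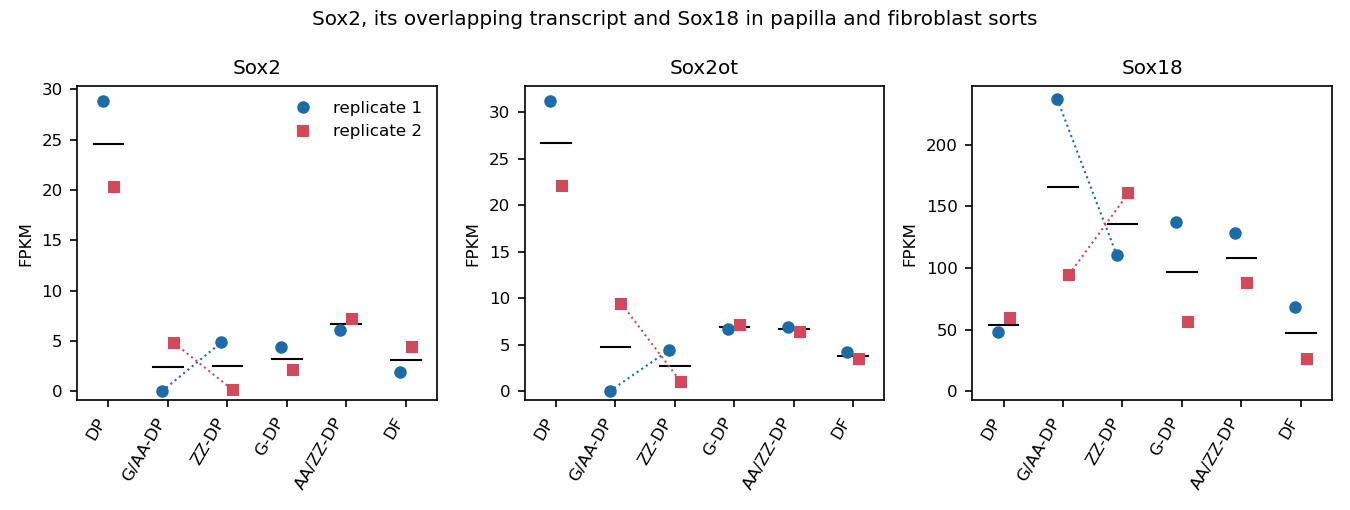
FPKM of Sox2, of the overlapping transcript Sox2ot and of Sox18 in the 5 papilla populations and DF (circles replicate 1, squares replicate 2, bars the mean; dotted lines join the libraries of a replicate in the Sox2-GFP line). For Sox2 the lines between G/AA-DP and ZZ-DP cross: 0 and 4.87 FPKM in replicate 1, 4.81 and 0.0891 FPKM in replicate 2.

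In the Crabp1-GFP line Sox2 was 4.39 and 2.08 FPKM in G-DP, against 6.13 and 7.20 FPKM in AA/ZZ-DP. The guard libraries were the lower in both replicates, but the change of -0.91 ± 0.64 did not pass (adjusted p = 0.800). All 8 papilla libraries of the Sox2-GFP and Crabp1-GFP lines were below the 2 DP libraries of the K14-H2BGFP line, whose gate also asks for Lef1-RFP and high ITGA9. Line and population cannot be told apart in that contrast. Markers named for the papilla were high in all of them: the summed FPKM of 18 genes was 4935 to 8970, against 6344 and 8219 in DP and 1267 and 1918 in DF. Between DP and DF, 13 of these 18 genes were higher and none lower. The list includes Itga9, whose protein set DP apart from DF and which is among the 13. It also includes the reporter genes Lef1 and Crabp1.

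Sox21 (chr14:118233233-118237030), a Sox factor whose loss in mice causes cyclic hair loss, was a gene of the epithelium. It stood at 80.3 and 50.6 FPKM in TAC, 75.3 and 52.2 in Mx, 69.4 and 38.3 in Epi, 47.4 and 47.5 in HF-SC, and 46.8 and 38.5 in HF-ORS. These populations largely overlapped, and ORS stood apart below them at 10.7 and 8.88 FPKM. ORS fell by 2.29 relative to Epi (SE 0.45, adjusted p = 0.00144), and Mx was higher than ORS by 2.57 ± 0.45 (adjusted p = 0.00156). Of the 10 genes, 2 were called between Mx and ORS, where 3.83% of all genes were, and they went opposite ways, Sox21 higher and Sox9 lower.

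Sox21 separated the bright sheath cells from the K14-RFP sorts that bear the sheath's name. ORS had 10.7 and 8.88 FPKM while HF-SC and HF-ORS had 38.5 to 47.5 FPKM, a difference between mouse lines and gates that was not tested. In the mesenchyme, Sox21 was 1.27 and 1.23 FPKM in DP, against 27.4 and 9.06 FPKM in DF, a fall of 2.91 (SE 0.45, adjusted p = 0.000342). Keratinocyte markers moved beside it, with 9 of 12 lower in DP than in DF and a summed FPKM of 83.1 and 128 in DP, against 1081 and 312 in DF. The DF library with more Sox21 was the one with more keratinocyte markers, and the part of these markers in the change was not tested. Mc, at 1.43 and 0.194 FPKM, was also lower than DF (-3.31 ± 0.45, adjusted p = 1.88e-05).

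The SoxD factors lack an activation domain of their own and pair with one another, and in cartilage Sox5 and Sox6 act beside Sox9. In these cells the 3 genes had separate patterns. Sox6 (chr7:115470872-116040776) and Sox13 (chr1:133382300-133424459) were close to mirror images, with a Pearson correlation of log2(FPKM + 1) of -0.89 over the 14 replicate 1 libraries and -0.83 over the 14 replicate 2 libraries. Sox5 (chr6:143828425-144782287, with a deposited row that ends at 144209568) correlated with neither, at -0.05 to 0.10. Populations of 1 mouse line are not independent of one another, so these values are descriptions.

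Sox6 had 34.0 and 32.5 FPKM in HF-ORS, 27.0 and 35.5 in Epi, and 27.7 and 23.2 in Mc. HF-SC had 4.96 and 4.26 FPKM, and every ORS, Mx and TAC library was below 1 FPKM, with 0.348 and 0.198 in ORS. Sox6 thus split the keratinocytes into high and low populations without overlap. It was lower in HF-SC than in HF-ORS (-2.61 ± 0.38, limma adjusted p = 0.000263), a call lost with a pseudocount of 0.1 (adjusted p = 0.0523), and lower in ORS than in Epi (-4.65 ± 0.38, adjusted p = 4.96e-08). For Sox13 the order was turned round, with 37.1 and 21.0 FPKM in ORS, against 0.428 and 0.0454 FPKM in Epi (4.57 ± 0.57, adjusted p = 1.02e-05). HF-SC had 2.55 and 2.88 FPKM of Sox13 and HF-ORS 0.160 and 0.871 FPKM, which did not pass (1.33 ± 0.57, adjusted p = 0.233). A limma refit with a term for replicate number called this difference (adjusted p = 0.0316).

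Sox5 was similar in matrix and sheath and low in the epidermis. It had 12.4 and 12.3 FPKM in Mx, 10.1 and 11.1 in TAC, and 9.98 and 9.83 in ORS, against 0.0719 and 0.307 in Epi. ORS was higher than Epi by 3.20 ± 0.41 (adjusted p = 1.30e-05), and neither Mx over ORS nor TAC over Mx passed. Of the 10 genes, 6 were called between ORS and Epi, where 9.83% of all genes were. Sox9, Sox5 and Sox13 were higher in ORS and Sox6, Sox7 and Sox21 lower. HF-SC had 2.31 and 1.04 FPKM of Sox5 and HF-ORS 1.19 and 1.01 FPKM, overlapping values well below those of ORS.

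Sox6, Sox7 and Sox5 placed HF-ORS nearer to Epi than to ORS, although HF-ORS is labelled as outer root sheath. Sox7 and Sox5 placed HF-SC there too, at means of 25.2 and 1.67 FPKM. Their means were 42.4 and 0.190 FPKM in Epi and 1.19 and 9.90 FPKM in ORS. Of these genes only Sox6 was called between HF-SC and HF-ORS. Over 15052 genes the mean profile of HF-ORS correlated with that of Epi at 0.928 and with that of ORS at 0.875, whereas HF-SC correlated at 0.881 with Epi and 0.896 with ORS. Krt1 and Krt10, keratins of the differentiating epidermis, averaged 1253 and 1075 FPKM in HF-ORS, against 220.4 and 203 FPKM in HF-SC and 4.25 and 5.88 FPKM in ORS. Both were called lower in HF-SC than in HF-ORS (-2.48 ± 0.52 and -2.36 ± 0.43). The labels of HF-ORS and HF-SC do not say whether the dermal or the epidermal preparation was sorted, and the part of epidermal cells in these levels was not tested.

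Within the mesenchyme Sox13 was the most abundant SoxD gene of the papilla. It had 27.4 and 14.9 FPKM in DP, against 6.13 and 5.27 FPKM in DF, and the libraries did not overlap. The change of 1.67 ± 0.57 missed the threshold (adjusted p = 0.0921) but passed in a limma refit with a term for replicate number (adjusted p = 0.00743). The other 4 papilla populations had 7.83 to 28.2 FPKM. Sox5 and Sox6 went the other way, at 0.303 and 0.373 FPKM (Sox5) and 0.0183 and 0.0537 FPKM (Sox6) in DP, against 8.52 and 4.86 FPKM (Sox5) and 5.03 and 4.99 FPKM (Sox6) in DF. Both were lower in DP, Sox5 by -2.48 ± 0.41 (adjusted p = 0.000590) and Sox6 by -2.54 ± 0.38 (adjusted p = 0.000266). Of 5 cartilage genes tested, 2 were higher in DP than in DF, Col11a1 (2.11 ± 0.57) and Col9a1 (1.13 ± 0.29), both collagens, and none was lower.

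In the mesenchyme, Sox5 and Sox6 were lower in DP than in DF, as were melanocyte markers. The DF library with more Sox5 was the one with more keratinocyte markers, while melanocyte markers were alike in both DF libraries. The part of either marker list in the Sox5 level of DF was not tested. In Mc, Sox5 had 11.3 and 18.3 FPKM, against 8.52 and 4.86 in DF (1.04 ± 0.41, adjusted p = 0.0841), and Sox6 had 27.7 and 23.2 FPKM, against 5.03 and 4.99 in DF (2.13 ± 0.38, adjusted p = 0.000325). In mouse melanocytes Sox5 is known to modulate the activity of Sox10, the SoxE factor of the neural crest. Of 10 melanocyte markers, all were lower in DP than in DF, and 10 of 13 Schwann cell markers were lower and 1 higher, Sox10 being on both lists. Of the 10 Sox factors, 4 were called between Mc and DF, where 18.2% of all genes were: Sox6 was higher, and Sox2, Sox18 and Sox21 were lower.

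In guard papilla cells Sox6 and melanocyte markers were again raised together. Sox6 was 2.41 and 2.70 FPKM in G-DP, against 0.0101 and 0.0816 FPKM in AA/ZZ-DP, with no overlap (1.76 ± 0.38, limma adjusted p = 0.0392). This was the only 1 of the 10 genes called, where 0.505% of all genes were, and it was lost whichever of the 4 libraries was left out, with changes of 1.70 to 1.82 and adjusted p from 0.0530 to 0.289. With a pseudocount of 5 the change was 0.58 (adjusted p = 0.205). Sox5 was 3.05 and 4.81 FPKM in G-DP, against 0.254 and 1.61 FPKM in AA/ZZ-DP, and did not pass (1.42 ± 0.41, adjusted p = 0.195). Beside them, 7 of 10 melanocyte markers and 5 of 13 Schwann cell markers were higher in G-DP and none lower. The summed melanocyte markers were 1271 and 1295 FPKM in G-DP, against 59.7 and 74.1 FPKM in AA/ZZ-DP, and Sox10 was 16.1 and 8.73 FPKM in G-DP, against 0.194 and 0.261 FPKM in AA/ZZ-DP. The library labelled ZZ-DP replicate 2, with 768 FPKM of these markers, had 2.18 FPKM of Sox6, and replicate 1, with 35.0 FPKM, had 0.0695. The part of melanocyte RNA in these Sox5 and Sox6 levels was not tested.

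**Figure D4:**
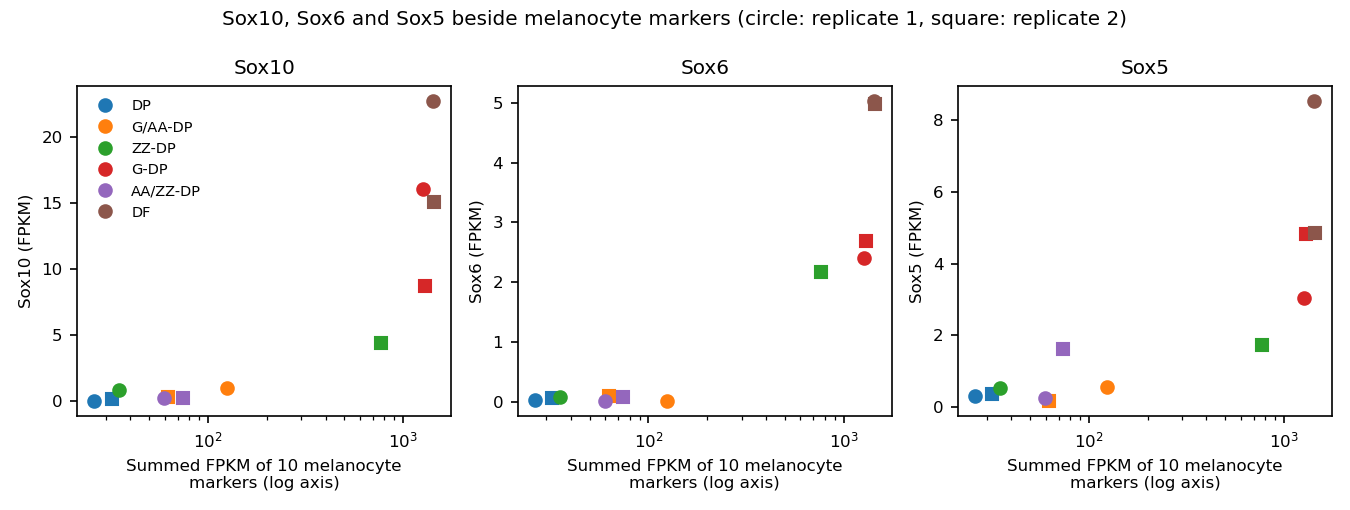
FPKM of Sox10, Sox6 and Sox5 (vertical axes) against the summed FPKM of 10 melanocyte markers, Sox10 included (horizontal log axis), in the 12 libraries of 5 papilla populations and DF (circles replicate 1, squares replicate 2). The 5 libraries over 700 FPKM of markers, both of G-DP, both of DF and ZZ-DP replicate 2, hold the 5 highest values of Sox6.

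The SoxF genes Sox7 and Sox18 are best known from blood vessel endothelium, where they act together. In these sorts they were in opposite tissues, with correlations of -0.66 and -0.50 over the replicate 1 and replicate 2 libraries. Sox7 (chr14:63943706-63950732) was 39.2 and 45.6 FPKM in Epi, 25.3 and 25.1 in HF-SC, and 25.8 and 20.6 in HF-ORS. ORS had 1.47 and 0.911 FPKM, and every Mx, TAC, Mc, papilla and DF library was at or below 1.44 FPKM. ORS was lower than Epi by -4.32 ± 0.40 (limma, adjusted p = 2.34e-07), while HF-SC and HF-ORS overlapped (0.12 ± 0.40, adjusted p = 0.963).

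Sox18 (chr2:181669837-181671640) was the most abundant of the 10 in every papilla population. It was 48.2 and 59.1 FPKM in DP, 137 and 55.8 in G-DP, and 128 and 87.8 in AA/ZZ-DP, beside 111 to 161 FPKM in the libraries labelled ZZ-DP and 94.7 to 237 FPKM in those labelled G/AA-DP. DF had 68.6 and 26.5 FPKM, overlapping DP (0.31 ± 0.54, limma adjusted p = 0.851), so the level was high in both sorts. Smooth muscle and pericyte markers were also in DF, with 7 of 10 lower in DP than in DF and none higher. Their part in the Sox18 level of DF was not tested. Mc had 0.511 and 0.283 FPKM and was lower than DF by -4.97 ± 0.54 (adjusted p = 1.03e-06). In keratinocytes Sox18 was listed at 0 in all ORS and Epi libraries, and TAC had 2.95 and 1.33 FPKM. Endothelial markers were low in the papilla: the summed FPKM of 15 such genes was 22.9 to 34.2 in the 10 papilla libraries, against 248 and 364 in Neg, and Sox17, the remaining SoxF gene, was at or below 0.114 FPKM in every library of papilla and DF.

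Endothelial markers were highest in Neg, where all 15 were called higher than the mean of the other 7 populations. Sox7 there was 8.74 and 11.5 FPKM and Sox18 17.1 and 12.0 FPKM, and Sox17 1.34 and 1.68 FPKM. Against the other 7, 3 of the 10 genes were called higher, Sox7 (2.03 ± 0.31, adjusted p = 0.000170), Sox18 (1.94 ± 0.41, adjusted p = 0.00504) and Sox9, where 3.99% of all genes were called. These are differences from a mean of logarithms: Sox7 in Neg was below Epi and Sox18 below DP and DF, and the plain mean of Sox18 was 14.5 FPKM in Neg and 14.9 FPKM over the others. With a pseudocount of 5, Sox7 (0.96, adjusted p = 5.22e-05) and Sox18 (0.86, adjusted p = 0.180) were no longer called. The Sox18 call also ended without Neg replicate 1 (adjusted p = 0.189) or replicate 2 (0.0531). All 10 smooth muscle and pericyte markers and 7 of 9 leukocyte markers tested were also higher in Neg, beside 7 of 10 melanocyte markers. Among fibroblast markers 5 of 12 were higher, and among keratinocyte markers 3 of 12, with none lower on either list. The part of any of these cells in the Sox7 and Sox18 levels was not tested.

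The SoxC genes Sox4 and Sox11, which act in progenitor cells of many embryonic tissues, had 89.5% identical bases over the HMG box, the most of any pair of members, and different patterns. Sox4 (chr13:28948919-28953699) was at 3.53 FPKM or more in all 28 libraries and had the flattest profile of the 10. Its levels were 33.8 and 22.9 FPKM in HF-SC, 29.1 and 14.7 in HF-ORS, 23.6 and 15.7 in Mx, 21.3 and 16.1 in TAC, and 21.7 and 13.1 in ORS. Epi, at 9.77 and 5.28 FPKM, lay with Mc and the papilla, at 3.53 to 12.7 FPKM. Sox4 was called in none of the 10 comparisons in the main limma fit, with an unadjusted p under 0.05 in ORS over Epi alone (1.12 ± 0.48, adjusted p = 0.184). A limma refit with a term for replicate number called it there (adjusted p = 0.0104). Sox4 was higher in replicate 1 than in replicate 2 in all 14 populations, as were 1.16% of tested genes, while 2.44% were higher in replicate 2 in all 14.

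Sox11 (chr12:27334268-27342718) was a gene of the mesenchyme and melanocytes. It was 5.77 and 3.35 FPKM in DP, 3.27 and 5.29 in DF, and 1.78 and 9.23 in Mc, and the other papilla libraries lay between 1.70 and 6.15 FPKM. In keratinocytes it was listed at 0 in both Epi libraries and was at or below 0.0593 FPKM in ORS, Mx and TAC, while HF-SC had 0.249 and 0.884 FPKM. Sox11 did not differ detectably in the 3 papilla comparisons fitted (limma adjusted p of 0.926 or more), and other pairs of mesenchyme populations were not tested. Both SoxC genes were thus at 1 FPKM or more in all papilla libraries, and of the pair only Sox4 was in ORS, Mx and TAC.

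The contrast of tissues summed these patterns. In the mean of Epi, ORS, Mx and TAC over that of DP and DF, 7 of the 10 genes were called, where 26.0% of all genes were. Sox21 (2.66 ± 0.28), Sox9 (1.74 ± 0.23), Sox7 (1.43 ± 0.25) and Sox5 (1.08 ± 0.25) were higher in epithelium, and Sox18 (-5.04 ± 0.33), Sox2 (-3.19 ± 0.39) and Sox11 (-2.38 ± 0.30) were lower. With a pseudocount of 5, Sox11 (-0.90, adjusted p = 7.79e-05), Sox7 (0.84, adjusted p = 2.13e-06) and Sox5 (0.62, adjusted p = 0.000489) fell short of a change of 1, and so did Sox5 without DF replicate 2 (0.91). Sox4 (0.38 ± 0.30), Sox6 (0.28 ± 0.23) and Sox13 (-0.86 ± 0.35) were not called. Without TAC replicate 1 or without DP replicate 2, Sox13 was called lower (-1.10, adjusted p = 0.00862, and -1.07, adjusted p = 0.0428). Sox6 and Sox13 differed more between ORS and Epi, 2 of the epithelial populations, than between the tissues.

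**Figure D5:**
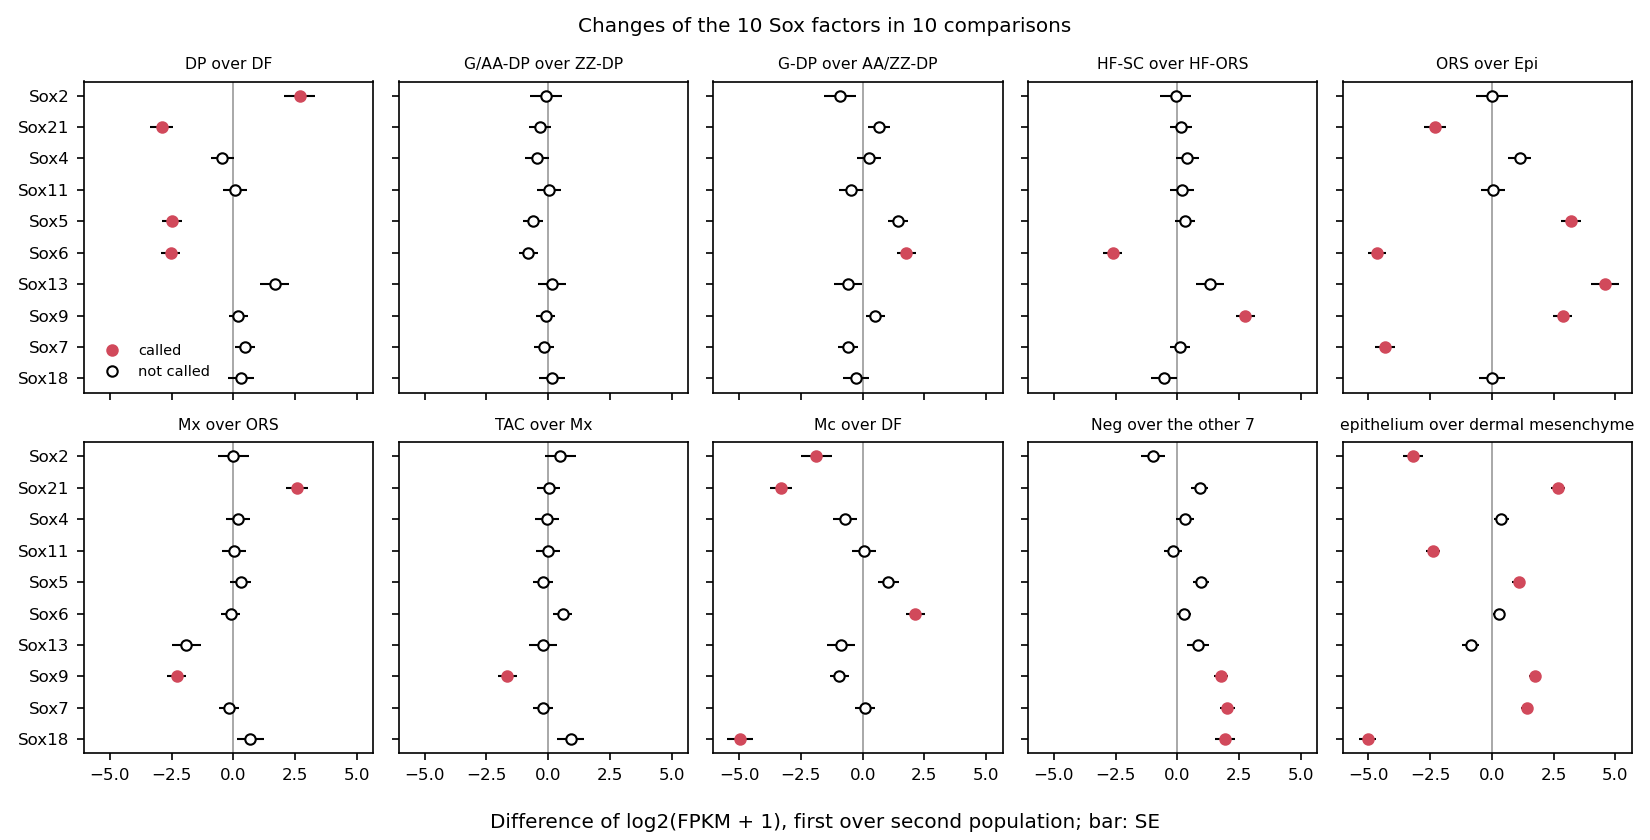
Difference of log2(FPKM + 1) for the 10 Sox factors in the 10 comparisons (points, with bars of 1 standard error; filled points passed an adjusted p of 0.05 and a change of 1). ORS over Epi and epithelium over dermal mesenchyme hold 6 and 7 filled points, and G/AA-DP over ZZ-DP holds none.

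Of the 10 other Sox genes of the table, 6 passed the filter, and Sox3, Sox14, Sox30 and Sry did not. Sox15, a SoxG factor known from the stem cells of muscle, was lower in ORS than in Epi, as were Sox6 and Sox7. Like Sox6 but not Sox7, it was also called lower in HF-SC than in HF-ORS. Unlike Sox6, it was low in Mc, at a mean of 0.144 FPKM. It was 9.41 and 5.88 FPKM in HF-SC, against 30.3 and 39.4 in HF-ORS (-2.07 ± 0.59, limma adjusted p = 0.0490), and 0.948 and 0.963 FPKM in ORS, against 30.9 and 29.5 in Epi (-4.00 ± 0.59, adjusted p = 6.77e-05). Sox1, the SoxB1 relative of Sox2 that is known from the neural tube, was 24.0 and 5.77 FPKM in DP, against 0.0581 and 1.26 FPKM in DF (3.07 ± 0.45, adjusted p = 0.000239). It was listed at 0 in every keratinocyte, melanocyte and Neg library. The other papilla populations had Sox1 means of 1.94 FPKM (G/AA-DP), 2.27 (ZZ-DP), 0.446 (G-DP) and 1.69 (AA/ZZ-DP), against 14.9 in DP and 0.657 in DF. They came from other mouse lines, so line and population cannot be told apart. Sox12, the remaining SoxC gene, was at 1.94 to 12.8 FPKM throughout. Between DP and DF 1 of these 6 genes was higher and 1, Sox10, lower, with a median change of 0.03 against 0.01 over all genes.

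Shaft keratins, the structural proteins of the hair, were set beside the lower Sox9 of TAC. Of 8 shaft and cuticle keratins tested, 1 was called higher in TAC than in Mx, with a median change of 1.45 against 0.00 over all genes, and their summed FPKM was 379 and 329 in TAC, against 110 and 153 in Mx. Sox18, at 2.95 and 1.33 FPKM in TAC against 1.60 and 0 in Mx, did not pass (0.91 ± 0.54, adjusted p = 0.681).

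The genes most like each member were ranked by the lower of 2 Pearson correlations of log2(FPKM + 1), over the 14 replicate 1 and the 14 replicate 2 libraries, among tested genes averaging 5 FPKM or more in some population. For Sox9 these were Itgb6, an integrin subunit (0.94 and 0.94), Lgr6, a receptor for R-spondins (0.93 and 0.93), and Cyp1b1, a cytochrome P450 (0.95 and 0.92). For Sox2 they were Luzp2 (0.97 and 0.92), Spef2 and Fgf14, all highest in DP. Sox18 had the closest of all, Prrx1, a homeobox factor of mesenchyme (0.98 and 0.97), Pdgfrb, a receptor for PDGF (0.99 and 0.97), and Fgd5.

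Sox7 was most like Stap2 (0.95 and 0.96), Clca1 and Mall, and Sox6 most like Ano1, a chloride channel (0.95 and 0.91), Kcnj2 and Rab38. The closest to Sox21 were Elmod1 (0.96 and 0.96), the splicing factor Esrp2 and the receptor Notch1. Sox13 had Scarb1 (0.92 and 0.88), the Wnt receptor Fzd1 and B4galt4, and Sox5 had Gcnt1 (0.94 and 0.92), Eps8 and Lbh. Sox11 was closest to Gab2 (0.95 and 0.94), Ank2 and Fam171a1. Sox4 was nearest to Arl5b (0.88 and 0.89), the stress factor Atf3 (0.93 and 0.87) and the cytokine gene Tnf (0.87 and 0.86). Each value is a description over populations, 8 of which come from 1 mouse line.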

How the data were processed

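Per the labels' protocols, RNA of sorted cells had an integrity number of 8.8 or more, and 6 ng was amplified to cDNA, so that low genes are measured poorly. The values are FPKM, deposited by the authors in 1 table with a column per library. TopHat2 2.0.3 and Bowtie2, Cufflinks 2.1.1 and the build mm10 stand in the submitters' processing notes. Annotation, filters and strand are not given in those sources. Of 23235 rows, 220 identical to another were dropped. The FPKM were used as deposited, with upper quartiles of 10.31 to 11.07 FPKM. Low values did not give whole fragments (25.24% of 3276 library triples closed within 0.06 on the log2 scale), so depth is unknown and no counting interval is given.

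Testing used log2(FPKM + 1) of genes that reached 1 FPKM in 2 or more libraries, in limma 3.58.1 under R 4.3.3, with 1 mean per population, empirical Bayes with a trend and Benjamini-Hochberg adjustment within each of 10 comparisons. With 2 libraries in each population, the spread of a gene was pooled over all 14. The fit was tested on simulated data. The members, the gene lists and the comparisons were chosen with earlier results of these data known. Named genes were the 10 members, the gate genes, the listed genes and the 3 genes most like each member. Krt1, Krt10, Xist, Malat1, Sox2ot and the member details singled out were chosen after their values were seen. Gene positions are those of RefSeq on GRCm38.p6, and coding sequences those of GENCODE M21. Deposited rows can cover other spans, as for Sox2, Sox5 (chr6:143828425-144209568), Sox4 (chr13:28950730-28953682) and Sox6 (chr7:115471344-116038744). Alternatives were the pseudocount, the filter, quantile normalization, a replicate block and leaving out each library.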

Additional observations from a re-analysis of the deposited data

How the results depend on the processing

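Each comparison was refitted with pseudocounts of 0.1 and 5, with no filter and with a filter at 5 FPKM, with quantile normalization, with a replicate block and without each library. The 404 refits of 31 results, the 30 calls and the uncalled Sox2 change in G/AA-DP over ZZ-DP, gave 368 with the same direction and call, 32 calls lost and 4 turns of direction, all 4 of that Sox2 change. Calls gained are not in this count. With a pseudocount of 5, the members called fell to 0 of 10 in G-DP over AA/ZZ-DP, 1 in Neg over the other 7 and 4 in epithelium over dermal mesenchyme, and with a pseudocount of 0.1 to 1 in HF-SC over HF-ORS. With quantile normalization the count was 0 in G-DP over AA/ZZ-DP and 0 in TAC over Mx, and leaving out any 1 library gave 0 to 0 in both. The cause was not tested. The Sox2 change in G/AA-DP over ZZ-DP, -0.07, became 0.0264 with quantile normalization, 1.15 without ZZ-DP replicate 1, 1.20 without G/AA-DP replicate 1 and, chosen after seeing the data, 2.42 without both. Without both replicate 2 libraries it was -2.55.

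Replicate numbers are shared between populations, but the labels do not say what they mark. Deviations of same-numbered libraries correlated at 0.0585 to 0.348 in 28 pairs of the K14-H2BGFP line, 0.342 in the Sox2-GFP, 0.348 in the Crabp1-GFP and 0.1 in the Sox9-GFP line, with 27 of the 28 over 0.1. Since the labels do not tie the numbers to animals or days and 1 pair lay under 0.1, the main fit did not pair them. Differences given within a replicate are descriptions. With the replicate block, members called were 5 in DP over DF, 0 in G/AA-DP over ZZ-DP, 1 in G-DP over AA/ZZ-DP, 3 in HF-SC over HF-ORS, 7 in ORS over Epi, 3 in Mx over ORS, 1 in TAC over Mx, 4 in Mc over DF, 3 in Neg over the other 7 and 7 in epithelium over dermal mesenchyme. Calls made with the block and not without it were Sox13 in DP over DF (adjusted p = 0.00743), HF-SC over HF-ORS (0.0316) and Mx over ORS (0.00422), Sox4 in ORS over Epi (0.0104) and Sox5 in Mc over DF (0.0468). The only call lost was Sox2 in Mc over DF (0.0683). Sox13 was also called in Mx over ORS with a pseudocount of 5 (0.0390) and, in epithelium over dermal mesenchyme, with a pseudocount of 0.1 (0.0222), without TAC replicate 1 (0.00862) or DP replicate 2 (0.0428), and Sox9 in Mc over DF with a pseudocount of 0.1 (0.0397). The 2 libraries per population and an unknown depth limit what can be said of genes under about 1 FPKM.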
